A study of Mus musculus with 4 samples.

Results

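Peaks of open chromatin that closed in runs along the chromosome were examined at 8 genes in 4 places of the mouse genome: Gata4, Blk and Fam167a on chromosome 14, Prkag2 and Galntl5 on chromosome 5, and Mir29a, Mir29b-1 and Podxl on chromosome 6. The members are all peaks that the authors' deposited table assigned to one of these genes, 75 of 80881 peaks. The genes were chosen by the fold and the adjusted p of this same contrast: each has at least 1 peak with an adjusted p under 0.05 and a lower mean with the Malat1 guide, and most stand in runs of such peaks. The direction and the calls are therefore what chose the members, and their values are given below as a description, with no test of the set.

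The assay was ATAC-seq: a transposase cuts and tags DNA that is not packed in nucleosomes, so that reads pile up over open regulatory DNA. The cells were a line from a lung adenocarcinoma of a KP mouse, made to carry Cas9 by lentivirus and puromycin selection, and every library came from this 1 line. A lentiviral CRISPR activation vector, lenti-SAM-Hygro, then delivered a guide, called dRNA in the labels. In the mA2 dRNA group the guide was directed at Malat1, a long nuclear RNA, and in the Con dRNA group at luciferase, which the mouse genome lacks. Each group had 2 biological replicate cell samples, 4 libraries in all, and Cas9 and the activation vector were common to both.

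The level of a peak is the authors' mean of normalized reads in a group, and a difference is the log2 mean in mA2 dRNA cells minus that in Con dRNA cells. The sum of these means over all peaks was 13278580 in mA2 dRNA cells and 12465466 in Con dRNA cells. A peak is called when the authors' deposited table gave it an adjusted p under 0.05. No spread between libraries and no depth per library stands behind the values below, because the table's columns of single libraries match no sample label by name and were not used. In a bulk measurement, fewer cells with an open site and a less open site in each cell cannot be told apart.

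GATA4 is a zinc finger transcription factor of the heart and the endoderm, and BLK is a Src family kinase best known from B lymphocytes. PRKAG2 is a regulatory, nucleotide-binding subunit of the energy sensor AMPK, and GALNTL5 is a relative of the enzymes that begin O-linked glycosylation, known in the mouse from male germ cells. Podocalyxin, made by Podxl, is a sialomucin of the cell surface related to CD34. The miR-29 microRNAs are processed from paired hairpins and repress messages for collagens and other matrix proteins and for the DNA methyltransferases DNMT3A and DNMT3B. An enhancer is a distal stretch of open DNA that can act on a gene far away, so the gene a peak is assigned to, usually the nearest, need not be the gene it acts on.

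The 2 hairpins on chromosome 6 encode the following mature strands, shown because the called peak with most reads among the members lay beside them. The sequences are from RefSeq (GRCm38.p6), 5′ to 3′, with the seed, bases 2 to 8, in capitals. The product of the related Mir29c on chromosome 1 stands below them for comparison.
mmu-miR-29a-3p: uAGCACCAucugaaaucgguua
mmu-miR-29b-3p: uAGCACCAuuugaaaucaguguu
mmu-miR-29c-3p: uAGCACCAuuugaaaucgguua
The 3 share the seed AGCACCA, which 4 mature entries of the RefSeq table hold, all of them products of the miR-29 genes. Counted from 1 at the 5′ end of miR-29a-3p, miR-29b-3p differs from it at C10U, G18A, U21G and A22U, and miR-29c-3p at C10U alone. The same miR-29b-3p is also made from Mir29b-2 on chromosome 1, so the RNA sequence alone does not tell which gene it came from.

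Across the 8 genes, 17 of the 75 peaks were called lower in mA2 dRNA cells and 0 were called higher. Over all peaks 0.507% were called lower and 2.73% in either direction, and since this contrast chose the members nothing is read from the difference. By the raw p-value of the authors' deposited table, 29 member peaks were lower at a p under 0.05 and 0 were higher, against 2.85% of all peaks lower and 8.86% higher, from which again nothing is read. The mean was lower in mA2 dRNA cells at 68 of the 75 peaks, and the median difference was -0.44, against 0.09 over all peaks, whose 5th and 95th percentiles were -0.65 and 1.08. The closing was spread unevenly over the genes: all 4 Galntl5 peaks were called, 3 of 7 Fam167a peaks, 2 of 5 Blk peaks, 2 of 6 Gata4 peaks, 3 of 20 Mir29b-1 peaks, and 1 peak each of 14 at Prkag2, 11 at Mir29a and 8 at Podxl.

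**Figure D1:**
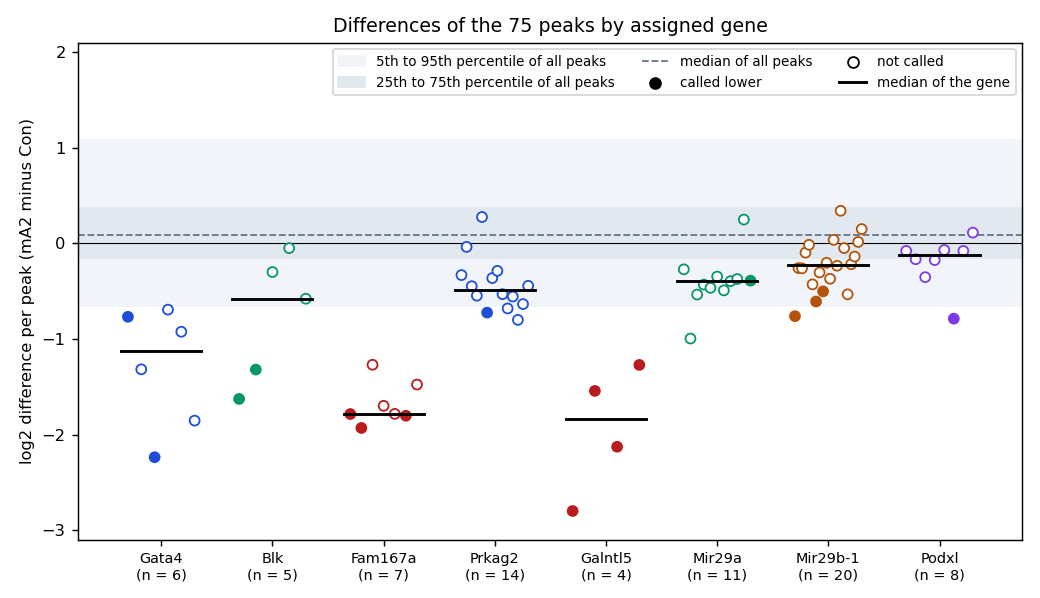
Difference in log2 normalized reads, mA2 dRNA minus Con dRNA, of every peak of the 8 genes, 1 point per peak, with filled points for peaks called lower in the authors' deposited table, a bar for each gene's median, and bands for the 5th to 95th and 25th to 75th percentiles of all peaks. All peaks of Gata4, Blk, Fam167a and Galntl5 lie below 0, whereas Prkag2, Podxl, Mir29a and Mir29b-1 hold 7 peaks above it in all.

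On chromosome 14, peaks that fell were called at each of Gata4, Blk and Fam167a, 7 of 18 in all. The mean was lower in mA2 dRNA cells at all 18 peaks, with a median difference of -1.40, and the smallest differences lay inside Blk. Summed over these peaks, the reads in mA2 dRNA cells were 0.472 times those in Con dRNA cells. The 7 called peaks spread over 206 kb (mm10), and joined within 100 kb of each other they made the largest of 345 clusters of called-lower peaks in the table, 295 of which held a single peak. Since such calls chose the members, nothing is read from that rank. Joined within 50 kb they split into groups of 2, 2 and 3, and the largest cluster in the table then held 4 peaks.

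Of the Gata4 peaks, the strongest lay in the gene, 26.1 kb downstream of the start site used by the table, at chr14:63245197-63245597 in a part classed as 5′ UTR. It held 169 normalized reads in mA2 dRNA cells and 288 in Con dRNA cells, a difference of -0.77. A weaker peak in a Gata4 intron at chr14:63264523-63264923, 6.77 kb from the start site, held 7.47 reads in mA2 dRNA cells and 35.2 in Con dRNA cells, 4.71-fold fewer. Their adjusted p-values in the authors' deposited table were 0.040 and 0.0274. Both lay inside the RefSeq gene, 1 strong with a modest fall, 1 weak with a steep fall. Whether the peak classed as 5′ UTR lies at another Gata4 start site was not tested. A further intronic peak 15.7 kb from the start site held 35.9 reads in mA2 dRNA cells and 89.4 in Con dRNA cells and was not called. The 3 peaks upstream of the gene, 37.3 to 70.7 kb away, had differences of -0.69, -0.92 and -1.85 and were not called. No Gata4 peak lay within 3 kb of the start site used by the table, and no Gata4 promoter sequence was available to check others.

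The 2 called Blk peaks were adjacent and lay outside the gene, past its 3′ end and within the RefSeq gene Gm4151. They were 69.8 and 68.7 kb downstream of the start site of Blk, a gene 44.4 kb long. At chr14:63346850-63347250 the mean was 23.0 reads in mA2 dRNA cells and 70.9 in Con dRNA cells, and at chr14:63347905-63348305 it was 53.9 in mA2 dRNA cells and 135 in Con dRNA cells. These are 3.09-fold and 2.50-fold lower, with adjusted p-values of 0.0247 and 0.0127 in the authors' deposited table. The 3 peaks inside Blk, in the 3′ UTR and in introns, had smaller differences of -0.30, -0.05 and -0.58, and none was called. Assigned to Blk by distance, the called pair stands between Gata4 and Blk and cannot be given to either gene from these data.

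Fam167a, a gene whose function is not well known, had the most even reduction. Its 7 peaks ran between 11.7 and 30.5 reads in mA2 dRNA cells and between 32.4 and 105 in Con dRNA cells, so the highest level in mA2 dRNA cells was under the lowest in Con dRNA cells. The called peaks lay on both sides of the start site. Upstream by 8.43 kb, at chr14:63427568-63427968, the mean was 30.5 reads in mA2 dRNA cells and 105 in Con dRNA cells (adjusted p 0.00842 in the authors' deposited table). Upstream by 3.41 kb it was 15.7 in mA2 dRNA cells and 59.7 in Con dRNA cells (adjusted p 0.0456 in the authors' deposited table). In intron 2, 14.7 kb downstream, it was 15.1 in mA2 dRNA cells and 52.8 in Con dRNA cells (adjusted p 0.0392 in the authors' deposited table). The promoter peak, at chr14:63436293-63436693 on the start site, held 25.2 reads in mA2 dRNA cells and 60.8 in Con dRNA cells, a difference of -1.27 that was not called (adjusted p 0.125 in the authors' deposited table). The called peak at 0.0456 was the nearest to the threshold from inside, and the nearest from outside were 2 peaks in the same intron with adjusted p-values of 0.0702 and 0.0735 and the Gata4 peak 15.7 kb from its start site with 0.0792, all in the authors' deposited table. These 3 had differences of -1.78, -1.70 and -1.32 and lay in the range of the called peaks.

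The stretch of lower means reached past Fam167a but not past the far end of Gata4. It began at a peak that was assigned to Neil2, a DNA repair glycosylase gene, but lay inside the RefSeq gene Gata4. From there to Mtmr9, a gene of the myotubularin family, 21 consecutive peaks over 322 kb had the lower mean in mA2 dRNA cells. Of the 15121 such runs in the table, 16 were at least as long. The peaks assigned to the flanking genes were closer to 0. Of those assigned to Neil2, 3 of 4 were lower, and the 4 ranged from -0.76 to 0.00. None of them lay over Neil2, and those at -0.76, 0.00 and -0.73 lay inside the RefSeq gene Gata4. The peaks of Fdft1 had differences of -0.02 and 0.06, and those of Mtmr9 -0.52 and -0.20. None of the 20 peaks assigned to the 5 flanking genes within 200 kb was called, and 0 had a raw p under 0.05 by the authors' deposited table.

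**Figure D2:**
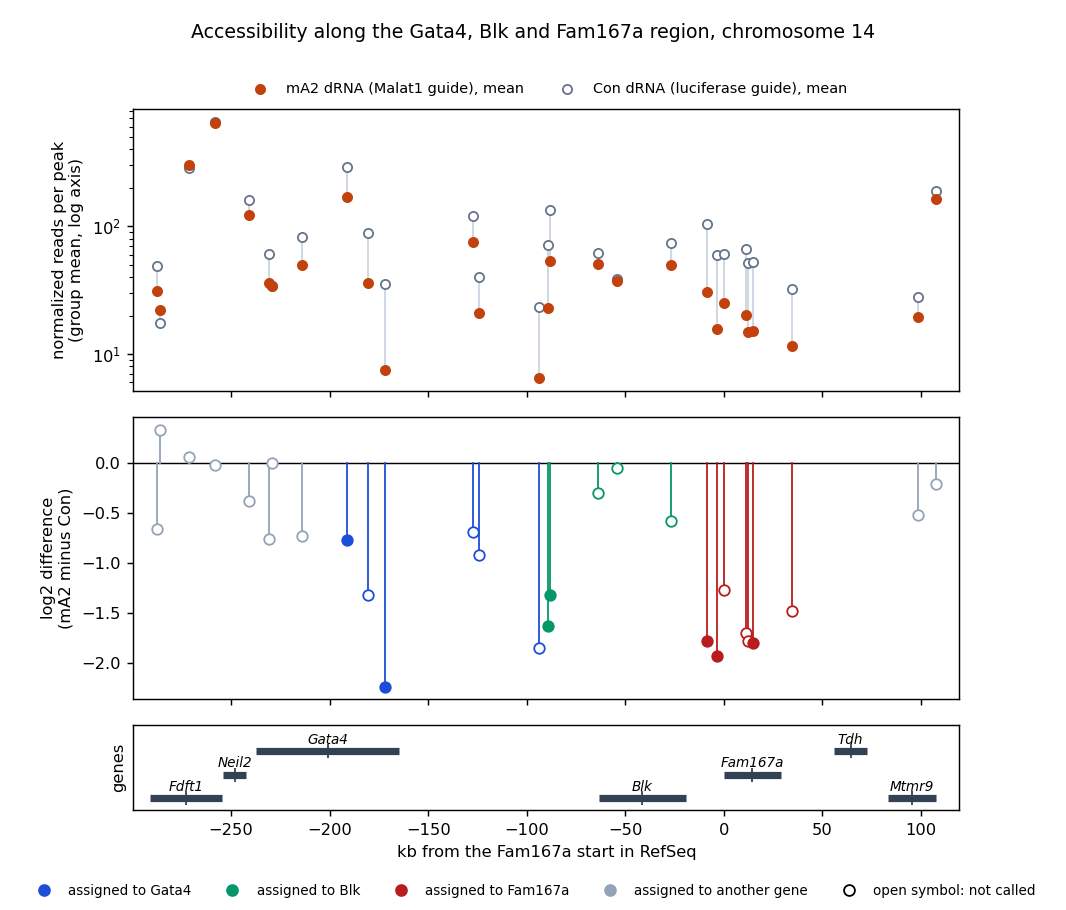
Peaks across Gata4, Blk, Fam167a and flanking genes on chromosome 14, by distance in kb from the Fam167a start. The top panel gives the mean normalized reads of each group on a log axis (filled for mA2 dRNA, open for Con dRNA, joined per peak), the middle panel the log2 difference, mA2 dRNA minus Con dRNA, with filled points for called peaks, and the bottom bars the RefSeq genes. The 18 peaks assigned to the 3 genes all lie below 0, and those assigned to the flanking genes return towards it.

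On chromosome 5 the closing was steep at Galntl5 and shallow at Prkag2, whose genes lie 75.2 kb apart. All 4 peaks of Galntl5 fell, by 2.41-fold to 6.96-fold in the group means. The most secure was in intron 2 at chr5:25187878-25188278, 6.42 kb from the start site, with 49.3 reads in mA2 dRNA cells and 215 in Con dRNA cells, a difference of -2.13 (adjusted p 1.73e-07 in the authors' deposited table). Its neighbours in introns 1 and 3 moved less. They held 49.3 reads in mA2 dRNA cells and 144 in Con dRNA cells at 3.14 kb, and 96.5 in mA2 dRNA cells and 233 in Con dRNA cells at 9.05 kb. The peak upstream by 23.3 kb, at chr5:25157729-25158129, held 6.88 reads in mA2 dRNA cells and 47.9 in Con dRNA cells, the largest difference of group means among the members at -2.80. The log2 fold in the authors' deposited table was smaller for this peak, -1.56, and largest among the members for the intron 2 peak, -1.85. Those 3 had adjusted p-values of 0.0187, 0.00663 and 0.00472 in the authors' deposited table. Within this cluster of 4 over 33.2 kb, no peak that was not called came between them.

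Prkag2 had 14 peaks, of which 13 had the lower mean in mA2 dRNA cells and 1 was called. The called peak lay in intron 1, at chr5:25030301-25030701, and held 329 reads in mA2 dRNA cells and 543 in Con dRNA cells, a difference of -0.72 (adjusted p 0.00455 in the authors' deposited table). The others ranged from -0.80 to 0.28. The strongest Prkag2 peak, in intron 3, held 695 reads in mA2 dRNA cells and 712 in Con dRNA cells, a difference of -0.04. The only peak assigned to Prkag2 within 3 kb of the start site, at chr5:25099755-25100155, held 18.8 reads in mA2 dRNA cells and 25.5 in Con dRNA cells, a difference of -0.44, and was not called.

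The promoters of both genes were set beside these values because one had no peak over it and the other a strong one. The most CG-rich of the 3 RefSeq promoters of Prkag2 is shown. Below, 250 bases before to 50 bases after a start site are given 5′ to 3′ on the gene's strand from RefSeq (GRCm38.p6), with every CG dinucleotide in capitals. The first is Galntl5, chr5:25181230-25181529 on the plus strand, and the second the promoter of Prkag2 at chr5:24908460-24908759 on the minus strand.
Galntl5: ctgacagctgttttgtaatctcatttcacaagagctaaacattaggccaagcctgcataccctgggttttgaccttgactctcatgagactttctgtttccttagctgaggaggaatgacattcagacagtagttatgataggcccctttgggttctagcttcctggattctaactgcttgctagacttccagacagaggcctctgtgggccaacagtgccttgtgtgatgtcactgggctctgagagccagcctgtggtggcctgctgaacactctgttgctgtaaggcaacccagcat
Prkag2: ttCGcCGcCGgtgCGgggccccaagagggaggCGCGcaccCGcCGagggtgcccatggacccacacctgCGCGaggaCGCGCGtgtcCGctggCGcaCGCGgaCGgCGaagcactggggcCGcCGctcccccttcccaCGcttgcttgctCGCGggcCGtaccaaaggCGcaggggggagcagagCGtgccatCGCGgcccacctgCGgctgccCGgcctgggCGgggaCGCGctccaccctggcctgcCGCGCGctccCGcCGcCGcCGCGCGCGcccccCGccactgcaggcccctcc
The Galntl5 promoter held 0 CG dinucleotides and 49.3% G and C, and no peak of the table overlapped it. Of 32817 promoter entries of the same length, 94.6% held at least 1 CG, which reads the same on both strands, and the median entry held 7. The Prkag2 promoter held 45 CG dinucleotides, more than 98.1% of entries, and 79.3% G and C. The peak over it, assigned to the antisense gene Prkag2os1, held 375 reads in mA2 dRNA cells and 350 in Con dRNA cells and was not called. Peaks also overlapped the other 2 RefSeq promoters of Prkag2 without a call. At the one with 6 CG dinucleotides the peak held 186 reads in mA2 dRNA cells and 176 in Con dRNA cells, and at the one with 25 it held 67.0 in mA2 dRNA cells and 75.5 in Con dRNA cells. At Prkag2 the start sites thus stood apart from the called intronic peak.

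Around these genes the run of lower means was 16 peaks long over 161 kb, beginning at the called Prkag2 peak and ending at the last Galntl5 peak. It included the 3 peaks of the noncoding gene 2900005J15Rik, none called, with a median difference of -0.86. The 9 peaks assigned to Prkag2os1, a short antisense gene within Prkag2, also lay inside the Prkag2 gene, and 8 of them had the higher mean in mA2 dRNA cells, with a median difference of 0.09 and no calls. Of all 25 peaks inside Prkag2, whatever gene they were assigned to, 15 had the lower mean and 10 the higher, with a median difference of -0.29. Galnt11, a GalNAc-transferase gene next to Galntl5, had differences of 0.18 and -0.22. Over the 4 other genes with peaks within 200 kb, 0 of 19 peaks were called, and 4 had a raw p under 0.05 by the authors' deposited table.

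**Figure D3:**
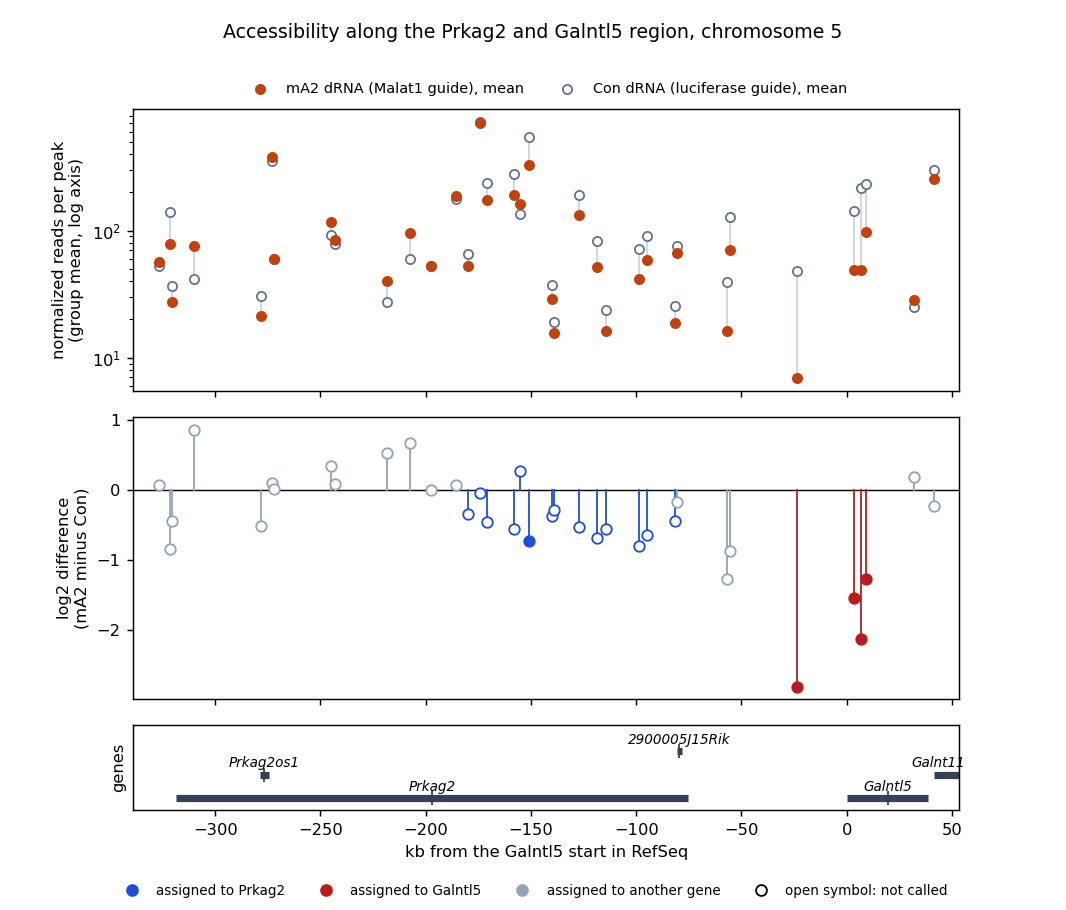
Peaks across Prkag2, Galntl5 and flanking genes on chromosome 5, by distance in kb from the Galntl5 start. The panels are the mean normalized reads of each group (log axis, filled for mA2 dRNA, open for Con dRNA), the log2 difference, mA2 dRNA minus Con dRNA, with called peaks filled, and the RefSeq genes. The 4 Galntl5 peaks lie between -1.27 and -2.80, below the 14 Prkag2 peaks.

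At the miR-29 hairpins on chromosome 6 the peaks were strong and the falls shallow. The 31 peaks of Mir29a and Mir29b-1 had a median level above 79.5% of all peaks of the table, and 26 had the lower mean in mA2 dRNA cells. Their median difference was -0.30, 4 were called, and the summed reads in mA2 dRNA cells were 0.838 times those in Con dRNA cells. The hairpins lie on the minus strand, 275 bp apart.

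The called Mir29a peak, at chr6:31061936-31062336, was classed as promoter by the table but lay 323 bp past the 3′ end of the hairpin, on the side away from Mir29b-1. It held 1061 normalized reads in mA2 dRNA cells and 1390 in Con dRNA cells, a difference of -0.39 (adjusted p 0.00694 in the authors' deposited table). A further 3 called peaks lay on the opposite side, upstream of Mir29b-1. The nearest, 3758 bp from its hairpin at chr6:31066852-31067252, held 231 reads in mA2 dRNA cells and 391 in Con dRNA cells, a difference of -0.76. The next, 17.2 kb upstream at chr6:31080680-31081080, held 575 reads in mA2 dRNA cells and 877 in Con dRNA cells. The last, 24.0 kb upstream at chr6:31087517-31087917 in an exon of a noncoding transcript, held 557 reads in mA2 dRNA cells and 789 in Con dRNA cells. Their adjusted p-values in the authors' deposited table were 0.0161, 0.0101 and 0.0134. So the falls flanked the hairpins on both sides, and the peaks between the first 2 upstream calls differed less than these: those 12.2 and 13.6 kb upstream held 905 and 453 reads in mA2 dRNA cells, against 1084 and 484 in Con dRNA cells. The strongest member of all, 36.6 kb upstream, held 1839 reads in mA2 dRNA cells and 2162 in Con dRNA cells and was not called.

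The 4 called peaks sat in a run of 12 lower means over 29.3 kb. Downstream of Mir29a, 9 more consecutive peaks over 42.0 kb had the lower mean, with a median difference of -0.43, and none was called. Upstream, peaks assigned to Mir29b-1 more than 40 kb away lay in the introns of the long noncoding RNA gene Lncpint and ranged from -0.53 to 0.34. The strongest member, 36.6 kb upstream, also lay inside Lncpint. The deposited annotation further placed the peaks 25.1 to 29.2 kb upstream in an intron of an Lncpint transcript, though outside the RefSeq gene. The 12 peaks that the table assigned to Lncpint itself, a gene induced by p53, had a median difference of 0.11, and none was called. Over the 4 flanking genes within 200 kb, 0 of 23 peaks were called, and 3 had a raw p under 0.05 by the authors' deposited table.

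**Figure D4:**
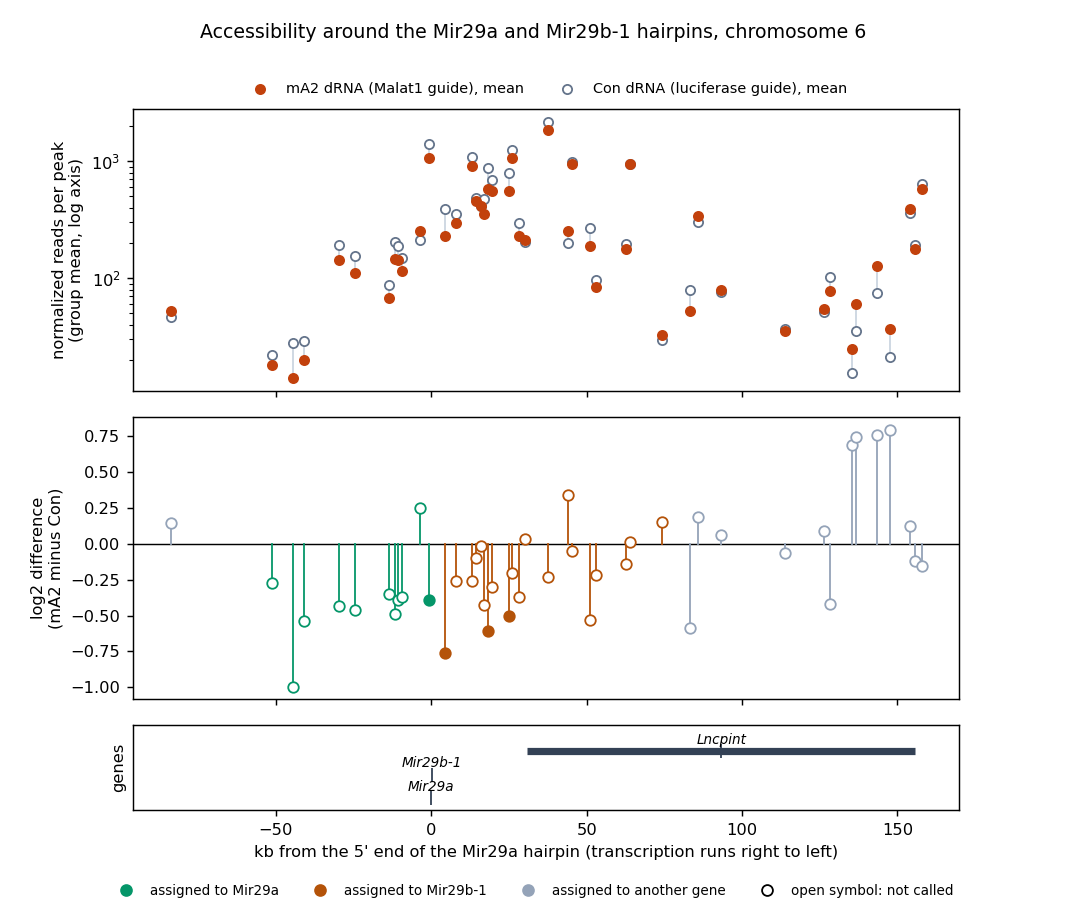
Peaks around the miR-29 hairpins on chromosome 6, by distance in kb. From top to bottom stand the group means in normalized reads (log axis, filled for mA2 dRNA, open for Con dRNA), the log2 difference, mA2 dRNA minus Con dRNA, with called peaks filled, and the RefSeq genes. The 4 called peaks, between -0.39 and -0.76, lie on both sides of the hairpins.

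Podxl, 456 kb from the hairpins, had 8 peaks and 1 call. The called peak, in intron 1 at chr6:31556450-31556850, 7.13 kb from the start site, held 304 reads in mA2 dRNA cells and 525 in Con dRNA cells, a difference of -0.79 (adjusted p 0.0176 in the authors' deposited table). At the promoter, chr6:31563775-31564175, the means were nearly equal, with 212 reads in mA2 dRNA cells and 224 in Con dRNA cells. The other 6 peaks had differences from -0.35 to 0.11. Only 1 site was thus called, while 7 of the 8 peaks had the lower mean. These ended a run of 12 lower means over 166 kb that began at Mkln1, with a median difference of -0.16. None of the 18 peaks of the 4 genes flanking Podxl was called, though 16 had the lower mean, and 1 had a raw p under 0.05 by the authors' deposited table.

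Most member peaks, called or not, lay away from the start sites used by the table. Over the 8 genes, 4 of the 75 peaks lay within 3 kb of such a site, at Fam167a, Prkag2, Mir29a and Podxl. Of these, 1 was called, past the 3′ end of the Mir29a hairpin. The called Gata4 peak classed as 5′ UTR and the called Mir29b-1 peak in exon 1 of a noncoding transcript counted as distant. The tally thus depends on the start sites chosen. The promoter class held 5.88% of the called members, 5.17% of the others, 7.32% of all called-lower peaks and 16.8% of all peaks. Of the 17 called peaks, 11 had a level above the median of all peaks, so the calls were not limited to weak peaks. The steepest differences of group means belonged to weak ones: the Galntl5 peak at -2.80 and the Gata4 peak at -2.24 held 6.88 and 7.47 reads in mA2 dRNA cells and 47.9 and 35.2 in Con dRNA cells. The log2 fold of the authors' deposited table gave these -1.56 and -1.08, and -1.85 and -1.28 to the stronger Galntl5 intron 2 peak and the Fam167a peak 8.43 kb upstream, so the order does not hold on that scale.

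**Figure D5:**
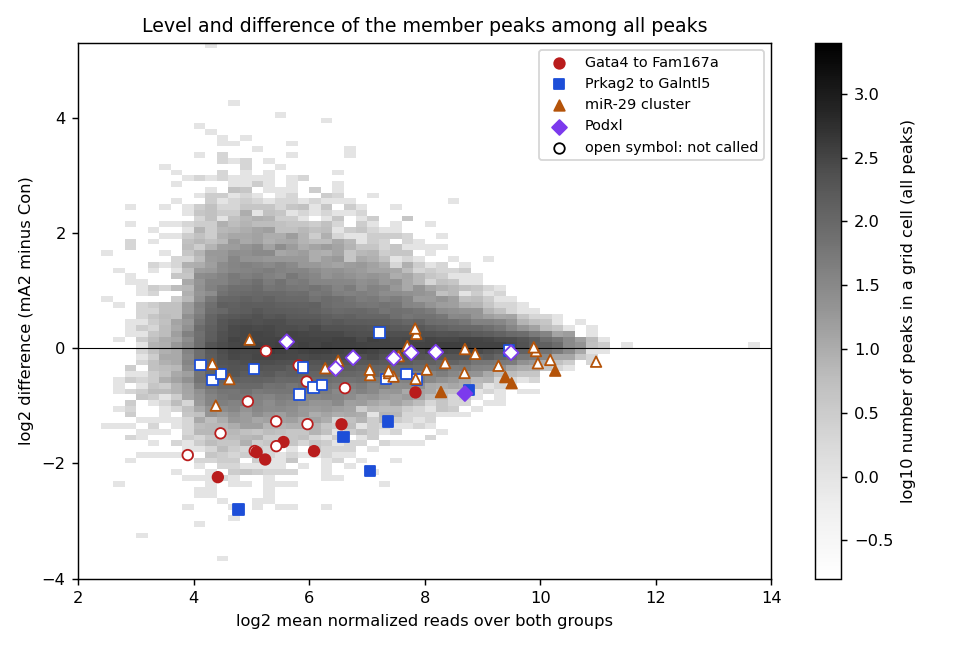
Difference in log2 normalized reads (mA2 dRNA minus Con dRNA) against mean level of each peak, over both groups in log2 normalized reads, with all peaks as shading and the peaks of the 8 genes as points. The miR-29 peaks sit mostly at high levels, their called ones between -0.76 and -0.39, and the peaks from Gata4 to Fam167a at lower levels with a median difference of -1.40. Filled symbols mark called peaks.

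Outside the 8 genes, those with 3 called-lower peaks each included Cdh22 (10 peaks), Kit (4), Lgr6 (14), Spag17 (16) and Tlr2 (11). Among these, Kit, which encodes a receptor tyrosine kinase, came closest to Galntl5, with a median difference of -1.63 over its 4 peaks. The other clusters of called-lower peaks with 4 members were those at Galntl5, at the miR-29 hairpins and at Phf12 and Gm11190 on chromosome 11. Runs of lower means with 3 or more calls numbered 10 in the table, and the 3 with most calls, 7, 5 and 4, were those of the members. The members were chosen from these same calls, so nothing is read from this order.

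Over 6 lists of the members' relatives, without the members, 9 of 305 peaks were called, 2.95%, near the 2.73% of all peaks. By direction, 5 were lower, 1.64% against 0.507% of all peaks, and 4 higher, 1.31% against 2.23%. These counts are small, and the difference was not tested. Of 53 peaks of GATA factors and their partners other than Gata4, 0 were called lower and 1 higher, the promoter of Zfpm2, a GATA cofactor, with 261 reads in mA2 dRNA cells and 139 in Con dRNA cells. Of all peaks, 2.23% were called higher, and by the authors' deposited table these 53 peaks had 0 lower and 5 higher with a raw p under 0.05. Among AMPK subunits and upstream kinases other than Prkag2, 0 of 48 peaks were called. Of these 48, 1 was lower and 3 higher with a raw p under 0.05 by the authors' deposited table. The enzymes that begin O-glycosylation had 3 lower and 1 higher of 110 peaks without Galntl5, 2.73% and 0.91%, against 0.507% and 2.23% of all peaks. Those that fell were in Galnt17, at 347 reads in mA2 dRNA cells and 557 in Con dRNA cells and at 17.1 in mA2 dRNA cells and 68.8 in Con dRNA cells, and 72.2 kb upstream of Galnt7, at 9.47 in mA2 dRNA cells and 43.1 in Con dRNA cells. The peak that rose was near Galntl6, at 84.8 reads in mA2 dRNA cells and 23.3 in Con dRNA cells.

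The other Src family kinases had 1 lower and 1 higher of 47 peaks, 2.13% each, against 0.507% and 2.23% of all peaks. The promoter of Lyn held 117 reads in mA2 dRNA cells and 247 in Con dRNA cells. An intronic peak of Fyn held 41.4 in mA2 dRNA cells and 9.78 in Con dRNA cells. Both kinases act below receptors of immune and other cells. Of 44 peaks of podocalyxin relatives and of the proteins linking them to actin, 1 fell and 1 rose, 2.27% each, both at Cd34. The Cd34 promoter held 128 reads in mA2 dRNA cells and 41.5 in Con dRNA cells. A peak 29.5 kb upstream held 288 in mA2 dRNA cells and 459 in Con dRNA cells. The Mir29b-2 and Mir29c genes had 3 peaks and no call, with 0 at a raw p under 0.05 by the authors' deposited table and a median difference of -0.37.

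Known targets of miR-29, 19 genes, had 199 peaks. The genes were those of the matrix and of DNA methylation, and Mcl1. Of these peaks 0 were called lower and 6 higher, 3.02%, near the 2.23% of all peaks. By the authors' deposited table, 2 were lower and 23 higher with a raw p under 0.05, and the 23 are 11.6%, against 8.86% of all peaks. The 6 lay at Col5a1, Sparc, Tet1 and Col1a2. The peak in an intron of Sparc, a matrix glycoprotein gene, held 601 reads in mA2 dRNA cells and 298 in Con dRNA cells. Upstream of the collagen gene Col1a2 the means were 175 in mA2 dRNA cells and 89.9 in Con dRNA cells, and in an intron of Tet1, a DNA demethylase gene, 70.1 in mA2 dRNA cells and 22.0 in Con dRNA cells. The median difference of the list was 0.18, against 0.09 over all peaks.

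The cells were checked against marker genes. All 7 markers of lung and simple epithelium had a peak, and the strongest promoter peak of Krt8, a keratin gene, held 559 reads in mA2 dRNA cells and 584 in Con dRNA cells. The surfactant genes Sftpc and Sftpb, which mark alveolar type II cells, had weak promoter peaks, at 32.2 and 37.5 reads in mA2 dRNA cells and 35.3 and 29.6 in Con dRNA cells. The strongest promoter peak of Nkx2-1, on the same list, held 65.8 reads in mA2 dRNA cells and 87.2 in Con dRNA cells. Of 7 B lymphoid markers, Cd79a, Pax5 and Ms4a1 had no peak, and of 6 heart muscle markers Myh6 had none. The other 5 heart muscle markers had peaks, with levels up to 876 reads in mA2 dRNA cells and 656 in Con dRNA cells. Ebf1, also a B lymphoid marker, had 6 peaks, and its strongest promoter peak held 245 reads in mA2 dRNA cells and 227 in Con dRNA cells, above every epithelial promoter peak but Krt8's. Epcam, an epithelial marker, had 6 peaks and none at its promoter. In the 11 lymphoid and 20 heart peaks, 0 were called, and 0 lymphoid and 1 heart peak had a raw p under 0.05 by the authors' deposited table. The epithelial list had 1 call among 45 peaks, 6.27 kb upstream of Krt8, with 208 reads in mA2 dRNA cells and 83.6 in Con dRNA cells.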

How the data were processed

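ATAC-seq libraries, 4 in all and 2 for each guide, had been prepared with a commercial kit, per the labels' protocols. The submitters' processing notes name Bowtie2, ChIPseeker, deepTools, DiffBind, FastQC, MACS2 and Picard, with no version, and the build mm10. Not given in the sources used here are what each tool did and the filters, read shift, normalization and pooling. Each peak of the authors' deposited table has the log2 mean normalized read count of each group, a log2 fold, a p-value and an adjusted p-value. It further has a deposited annotation class, the assigned gene and other values such as the distance to its start site. Its headers call the groups dmA12 and dLuc, and dmA12 was taken as mA2 because the series holds 1 contrast. The 4 columns of single libraries match no sample label and were not used, so the planned fits per library were replaced by the authors' p-values.

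Differences of group means, clusters of called-lower peaks (midpoints within 100 kb) and runs of consecutive peaks with a lower mean were computed with Python 3.11.15, pandas 2.3.3, numpy 2.4.6 and scipy 1.17.1, and figures with matplotlib 3.10.9. For the centring alternatives, the difference was moved by the median and its p recomputed from the standard error implied by the deposited p-value, a step tested on simulated data. Named were every called member peak, each promoter peak within 3 kb of a start site, genes with 3 or more called-lower peaks, up to 3 genes of smallest p per list, and flanking genes within 200 kb. One gene that this rule names is not reported here. Other peaks were named for their level or their place near the threshold, after their values were seen. Members and lists were chosen with earlier results of these data known. Gene identifiers matched the RefSeq table (GRCm38.p6) for 18754 of 18766, all 8 members were found in it, and 2 had a promoter sequence. P-values measure only the spread between 2 cell samples per group of 1 line.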

Additional observations from a re-analysis of the deposited data

How the results depend on the processing

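With an adjusted p under 0.01 in place of 0.05, 6 of the 17 member peaks stayed called lower, 1 on chromosome 14, 4 at Prkag2 and Galntl5, 1 at the miR-29 hairpins and 0 at Podxl. Over all peaks that threshold left 169 lower and 867 higher, against 410 and 1801. Centring on the median of all peaks gave 590 lower and 1307 higher, and centring on each chromosome's median 478 and 1179. The 17 member calls were kept under both, with 1 gained at miR-29 under the first. The medians subtracted were 0.09 over all peaks, 0.06 on chromosome 14, 0.04 on chromosome 6 and -0.006 on chromosome 5. Lower differences thus moved away from 0 or hardly moved, so these settings could scarcely remove a lower call. Leaving out peaks under 20 reads, or taking every peak of each span (78 peaks), also left 17. The weakest called member had a mean of 21.3 reads, so the filter on reads left out none of the 17. The 20 named member peaks kept sign and call under both centrings, and kept their sign in the log2 fold of the authors' deposited table, which shares its p-values. Joined within 50 kb the chromosome 14 cluster of 7 called-lower peaks split into groups of 2, 2 and 3, and the largest in the table held 4. Within 200 kb the largest again held 7. No paired analysis was possible because the columns of single libraries carry no sample name or replicate number. For that reason the replicate block, leaving out each replicate and the comparison of DESeq2 size factors with TMM were not run. Peaks with few reads limit what can be seen: 4 member peaks had a mean under 20 reads.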

Other observations

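In the Hoxa cluster on chromosome 6, 3 called-lower peaks at Hoxa11, Hoxaas2 and Mir196b spanned 81.9 kb, and 25 of the 27 peaks there had the lower mean in mA2 dRNA cells, with a median difference of -0.30. Over Sfrp2, Tlr2 and their neighbours on chromosome 3, 25 consecutive peaks spanning 715 kb had the lower mean in mA2 dRNA cells, 3 of them called. These stretches were named after their values were seen.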
